A study of Homo sapiens with 6 samples.

Results

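The interferon response genes described here are a list of 41 human genes: 6 transcription factors of the STAT and IRF families and 35 genes that interferon is known to induce. They were taken by symbol and all 41 were found among the 60683 genes of the count table. The gene table lists DDX58 under its current symbol, RIGI. RNA sequencing was performed on RCC4 cells, an established human cell line from a clear cell kidney cancer without working VHL, as ATF4 KO cells (n = 3) and as the parental line (n = 3), which the labels call wild type at ATF4. No treatment is named for either group, so the comparison is between unstimulated lines as far as the labels say. How the KO was made, whether its cells are 1 clone or a pool, and whether replicates were grown separately is not stated in the labels. A difference between the lines other than ATF4 cannot be told apart from an effect of its loss, and the adjusted p-values below measure only the spread between these libraries, which may be technical.

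Interferons are secreted proteins that cells release when sensors such as RIG-I or cGAS detect foreign or misplaced nucleic acid. Binding to the receptor activates the kinases JAK1 and TYK2, which phosphorylate STAT proteins. STAT2 joins IRF9 in the complex ISGF3, which binds the interferon-stimulated response element (ISRE) in the promoters of antiviral genes. Many of these genes also keep a low level without added interferon, and their products can feed back on the pathway: STAT2, IRF7, IRF9, RIG-I and ISG15 are themselves interferon-induced. ATF4 is a bZIP transcription factor of the integrated stress response, a programme that PKR, itself the product of an interferon-induced gene, can also switch on.

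Total counts were 41002611, 45980253 and 46755358 in ATF4 KO libraries and 43783703, 44524187 and 42502027 in parental libraries. A count of 0 allows up to 0.0634 to 0.0729 CPM (counts scaled to a common library size with TMM factors) in 1 library (3 counts, counting error only). ATF4 transcripts were at 209.8, 223 and 209.2 CPM in ATF4 KO libraries, against 239.5, 251 and 243 CPM in parental libraries, so the transcript was largely kept in the KO libraries and its level does not by itself check the label. The renal and carcinoma list of 10 genes summed to 6954 to 7153 CPM in ATF4 KO and 6393 to 6763 CPM in parental libraries, mostly from VIM, which mesenchymal cells also express. PAX8 was at a mean of 215 CPM in ATF4 KO and 238 CPM in parental libraries, while the proximal tubule markers LRP2 and CUBN were under 1 CPM. The leukocyte list of 6 genes summed to 6.95 to 7.34 CPM in ATF4 KO and 3.27 to 3.61 CPM in parental libraries, nearly all of it CSF1R, with CD3E and CD14 at 0 in all 6 libraries. The endothelial list of 5 genes stayed at or under 0.182 CPM, and the fibroblast list of 4 genes was at 51.1 to 51.7 CPM in ATF4 KO and 58.5 to 72.7 CPM in parental libraries, with DCN and LUM near 0. Mitochondrial transcripts took 1.38% to 1.75% of counts in ATF4 KO and 2.17% to 2.79% in parental libraries. The part of these differences in the results below was not tested.

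Most interferon response genes did not pass the test between the lines. Of the 41 members, 36 had enough counts to be tested, and 9 passed an adjusted p of 0.05: 6 fell in ATF4 KO cells (STAT2, IFIH1, IFIT2, RSAD2, IFITM3 and TRIM21) and 3 rose (OAS3, IRF3 and IFI16). Among all 15321 genes tested, 20.8% fell and 21.2% rose. The median log2 fold change of the tested members (ATF4 KO over parental) was -0.06, against 0.01 for all tested genes. All 3 ATF4 KO libraries lay below all 3 parental libraries for 7 members, beside 24.3% of all tested genes, and above them for 2, beside 25.3%. The other 27 overlapped. The call counts depended on single libraries. Without parental replicate 1, 3 members were called lower and 2 higher, beside 17.9% and 17.8% of all tested genes. Without parental replicate 3, 10 members were called lower, beside 19.5%, and without ATF4 KO replicate 1, 5 were called lower and 1 higher, beside 19% and 18%. DESeq2 called 5 lower and 1 higher, beside 19.3% and 18.5%. With the median of the neighbours on the chromosome removed, 11 members were called lower, beside 18.2% of all tested genes, and 1 higher, beside 17.9%. That setting added DDX58, IFIT5, BST2, HERC6, PARP9, PARP14 and IFI44 and dropped IFITM3 and TRIM21 from the lower calls, and it dropped IRF3 and IFI16 from the higher ones.

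**Figure D1:**
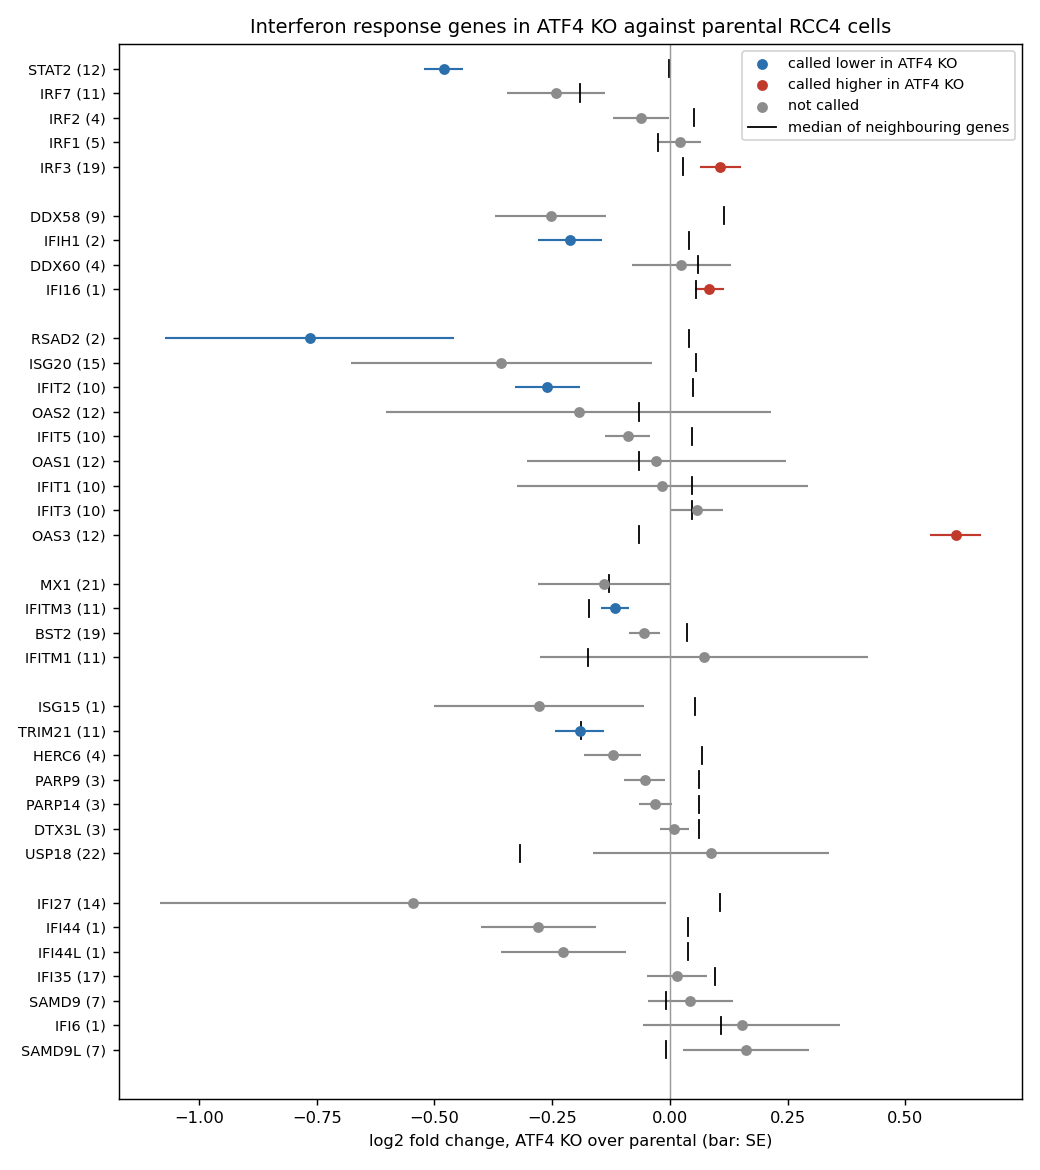
Log2 fold change, ATF4 KO over parental, of the 36 tested interferon response genes (points) with its standard error (bars), grouped by role, with the chromosome of each gene in brackets and the median log2 fold change of its tested neighbours as a black tick. STAT2 (-0.48) and OAS3 (0.61) stand clear of 0, while most other members lie within about 0.3 of it and the 2 lowest, RSAD2 and IFI27, carry wide bars.

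Among the transcription factors, STAT2 fell, IRF3 rose slightly, and IRF1, IRF2 and IRF7 were not called. STAT2 (chromosome 12, 56341597 to 56360155, minus strand, GRCh38) is the subunit that gives ISGF3 its transactivation domain. It was at 53.1, 50.3 and 54.7 CPM in ATF4 KO libraries, against 75.3, 74.3 and 71.04 CPM in parental libraries. The groups did not overlap, and the replicates of each lay close together. The log2 fold change was -0.48 ± 0.04 (SE; adjusted p = 7.08e-15), and the median of its neighbours on the chromosome was 0.00. STAT2 was called lower under all 14 alternative analyses.

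IRF3, the factor that nucleic acid sensors activate to start interferon transcription, was at 52.7, 51.9 and 49.4 CPM in ATF4 KO libraries, against 47.9, 46.5 and 48.6 CPM in parental libraries. The KO values were all higher but by little (log2 fold change 0.11 ± 0.04, adjusted p = 0.0445). The call was lost without ATF4 KO replicate 1 (adjusted p = 0.188), ATF4 KO replicate 2 (0.12), parental replicate 1 (0.0825) or parental replicate 2 (0.159). It was lost under 10 of the 14 alternatives, DESeq2 (0.0816) and removal of the neighbours' median (0.156) among them, and 19.4% of the IRF3 exon sequence overlaps BCL2L12 on the opposite strand. IRF7, which amplifies interferon transcription, was at 7.15, 6.20 and 7.36 CPM in ATF4 KO libraries, against 9.13, 8.37 and 6.96 CPM in parental libraries. The groups overlapped through parental replicate 3, the lowest of its group. Its log2 fold change was -0.24 ± 0.10 (adjusted p = 0.0556), which passed the threshold without parental replicate 3 (adjusted p = 0.00749) or ATF4 KO replicate 3 (0.0416). With each library left out it ranged from -0.34 to -0.15, and it was not called without parental replicate 1. The neighbours of IRF7 on chromosome 11 had a median of -0.19. IRF1, a factor that interferon gamma induces strongly, and IRF2, which competes with IRF1 for its sites, had log2 fold changes of 0.02 and -0.06. IRF9, the DNA-binding subunit of ISGF3, was too low to test, at 2, 13 and 8 counts in ATF4 KO libraries and 11, 5 and 8 counts in parental libraries. A second annotated gene covers 48.4% of its exon sequence on the same strand, so reads shared by the pair may not have been counted for either.

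Of the 4 nucleic acid sensors, IFIH1 fell and IFI16 rose. IFIH1 encodes MDA5, a sensor of long double-stranded RNA. It was at 21.2, 18.4 and 19.9 CPM in ATF4 KO libraries, against 25.3, 23.2 and 20.3 CPM in parental libraries. The groups overlapped, since ATF4 KO replicate 1 lay above parental replicate 3. The log2 fold change was -0.21 ± 0.07 (adjusted p = 0.00978), and the call was lost without parental replicate 1 (adjusted p = 0.149) or ATF4 KO replicate 2 (0.0937). DDX58, which encodes RIG-I, a sensor of short RNA with a 5′ triphosphate, was at 17.9, 16.0 and 16.2 CPM in ATF4 KO libraries and 23.7, 19.2 and 16.6 CPM in parental libraries. Its log2 fold change of -0.25 ± 0.12 was not called (adjusted p = 0.121), but was without parental replicate 3 (adjusted p = 3.49e-05). With each library left out it ranged from -0.37 to -0.10, and it was not called without parental replicate 1. IFI16, a DNA-binding PYHIN protein, was at 136, 132 and 139 CPM in ATF4 KO libraries, against 125, 132 and 127 CPM in parental libraries. Its log2 fold change was 0.08 ± 0.03 (adjusted p = 0.0263), and leaving out ATF4 KO replicate 1 (adjusted p = 0.0721), ATF4 KO replicate 3 (0.166), parental replicate 1 (0.138) or parental replicate 3 (0.0801) ended the call, as did DESeq2 (0.066) and removal of the neighbours' median (0.504). DDX60, a helicase described as a partner of RIG-I, had a log2 fold change of 0.02 ± 0.11.

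The group of RNA binding, synthesis and decay effectors held the largest change in each direction among the called members, OAS3 up and RSAD2 down. The RSAD2 call was lost without parental replicate 1. The oligoadenylate synthetases OAS1, OAS2 and OAS3 lie side by side on chromosome 12 and make the messenger that activates RNase L. OAS3 (112938352 to 112973249, plus strand) was at 52.7, 46.5 and 51.4 CPM in ATF4 KO libraries, against 35.8, 30.0 and 33.1 CPM in parental libraries. All KO values were above all parental values (log2 fold change 0.61 ± 0.05, adjusted p = 2.66e-11), and OAS3 was called higher under all 14 alternative analyses. OAS1 (112906777 to 112933222) was at 4.35, 3.94 and 4.14 CPM in ATF4 KO libraries, against 6.23, 3.41 and 3.02 CPM in parental libraries. The KO values fell inside the parental range, whose top was set by parental replicate 1. The log2 fold change of OAS1 was -0.03 ± 0.28 with all libraries and 0.36 without parental replicate 1 (adjusted p = 0.0517). OAS2 was at 0.705, 0.344 and 0.381 CPM in ATF4 KO libraries and 0.943, 0.455 and 0.214 CPM in parental libraries, with a log2 fold change of -0.19 ± 0.41. The median of the neighbours of these genes was -0.07.

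RSAD2 (chromosome 2, 6865806 to 6898239, plus strand) encodes viperin, a radical SAM enzyme that makes a chain-terminating nucleotide. It was at 0.656, 0.839 and 1.06 CPM in ATF4 KO libraries, against 2.39, 0.978 and 0.997 CPM in parental libraries. The groups overlapped, and 1 library, parental replicate 1, held more than the other 5. The log2 fold change was -0.77 ± 0.31 (adjusted p = 0.0497), and it was -0.21 without parental replicate 1 (adjusted p = 0.638). The call was also lost without ATF4 KO replicate 1 (adjusted p = 0.199) or ATF4 KO replicate 2 (0.167) and held under 6 of the 14 alternatives.

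The 4 IFIT genes form a cluster on chromosome 10, and some of their products bind RNA that lacks host modifications. IFIT2 was at 16.3, 18.1 and 18.7 CPM in ATF4 KO libraries, against 23.6, 20.9 and 19.2 CPM in parental libraries. The groups did not overlap, though ATF4 KO replicate 3 and parental replicate 3 were close (log2 fold change -0.26 ± 0.07, adjusted p = 0.00178), and without parental replicate 1 the adjusted p was 0.0596. IFIT1 was at 13.1, 8.65 and 12.1 CPM in ATF4 KO libraries and 15.5, 8.48 and 10.2 CPM in parental libraries, and the parental range enclosed all KO values. Its log2 fold change was -0.02 ± 0.31, and 0.27 without parental replicate 1 (adjusted p = 0.243). IFIT3 and IFIT5 had log2 fold changes of 0.06 and -0.09 and were not called, although all 3 ATF4 KO values of IFIT5 (35.98 to 37.7 CPM) were below its parental values (39.0 to 39.4 CPM). ISG20, an RNA exonuclease, was near 1 CPM or less in all libraries, with a log2 fold change of -0.36 ± 0.32. OASL, a synthetase relative without enzyme activity, was not tested, at 2, 1 and 0 counts in ATF4 KO libraries and 9, 4 and 1 counts in parental libraries.

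Among the membrane and GTPase effectors, IFITM3 fell slightly, and MX1, IFITM1 and BST2 were not called. IFITM3, which blocks fusion of viruses in endosomes, was at 121.4, 121.2 and 119.6 CPM in ATF4 KO libraries, against 132, 132 and 129 CPM in parental libraries. The groups were narrow and did not overlap, with a log2 fold change of -0.12 ± 0.03 (adjusted p = 0.00144). IFITM3 lies on chromosome 11 (319669 to 327537, minus strand), where its neighbours had a median of -0.17. With that median removed its log2 fold change was 0.06 (adjusted p = 0.162). BST2, or tetherin, which holds budding virions at the cell surface, was at 103, 98.3 and 101 CPM in ATF4 KO libraries and 106, 104 and 104 CPM in parental libraries (log2 fold change -0.05 ± 0.03, adjusted p = 0.188). MX1, a dynamin-like GTPase that traps viral nucleocapsids, was at 2.99 to 3.33 CPM in ATF4 KO libraries and 3.18 to 3.55 CPM in parental libraries. IFITM1 was at 0.584, 0.903 and 0.761 CPM in ATF4 KO libraries and 1.196, 0.660 and 0.285 CPM in parental libraries, so the parental group alone spanned a wider range than both groups differed by. IFITM1 and IFITM2 share 32.5% and 22.8% of their exon sequence on 1 strand, so the split of their reads is uncertain. IFITM2 was not tested, at 4 to 10 counts in ATF4 KO libraries and 5 to 15 counts in parental libraries, and neither was MX2, at 4 to 12 counts in ATF4 KO libraries and 0 to 8 counts in parental libraries.

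Of the 7 genes of ISG15 conjugation, ubiquitin ligation and ADP-ribosylation, only TRIM21 was called. TRIM21, a ubiquitin ligase that binds antibody-coated virus, was at 29.4, 29.8 and 28.3 CPM in ATF4 KO libraries, against 32.3, 34.3 and 33.3 CPM in parental libraries. The groups did not overlap (log2 fold change -0.19 ± 0.05, adjusted p = 0.00205), but its neighbours on chromosome 11 had the same median of -0.19, and its own change was 0.00 with that median removed. ISG15, a ubiquitin-like modifier, was at 12.01, 9.94 and 10.2 CPM in ATF4 KO libraries and 16.9, 12.01 and 10.1 CPM in parental libraries. Parental replicate 1 stood above the other 5 libraries, which lay between 9.94 and 12.01 CPM. The log2 fold change was -0.28 ± 0.22 (adjusted p = 0.398), and -0.43 without parental replicate 3 (adjusted p = 0.0061). With each library left out it ranged from -0.43 to -0.05, and it was not called without parental replicate 1. USP18, which removes ISG15 and restrains the receptor, was at 0.846 to 1.33 CPM in ATF4 KO libraries and 0.9497 to 1.08 CPM in parental libraries. HERC6, DTX3L, PARP9 and PARP14 had log2 fold changes of -0.12, 0.01, -0.05 and -0.03 with standard errors of 0.03 to 0.06. DTX3L and PARP9, which form 1 complex and share a divergent promoter region on chromosome 3, had parental SDs of log2 CPM of 0.04 and 0.09. The median parental SD was 0.14 over the tested members and 0.09 over those that averaged 5 CPM or more.

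None of the 7 other tested interferon-induced genes was called. IFI6, a protein that guards the endoplasmic reticulum against flavivirus replication, was at 10.2, 11.8 and 13.3 CPM in ATF4 KO libraries and 13.5, 8.26 and 10.1 CPM in parental libraries. The parental range enclosed all KO values. The log2 fold change of IFI6 was 0.15 ± 0.21, and 0.36 without parental replicate 1 (adjusted p = 0.00804). IFI44 was at 5.06, 4.45 and 6.17 CPM in ATF4 KO libraries and 7.29, 6.32 and 5.44 CPM in parental libraries, with a log2 fold change of -0.28 ± 0.12 (adjusted p = 0.06). That difference passed the threshold without ATF4 KO replicate 3 (adjusted p = 0.00895) or parental replicate 3 (0.0117). With each library left out it ranged from -0.42 to -0.17, and it was not called without parental replicate 1. IFI44L, IFI35, SAMD9 and SAMD9L had log2 fold changes of -0.23, 0.01, 0.04 and 0.16. IFI27 was below 0.4 CPM in all libraries, and XAF1 was not tested, at 4 to 7 counts in ATF4 KO libraries and 1 to 8 counts in parental libraries.

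Compared per kilobase of exon, the members covered a wide range of levels. BST2 (89.97 CPM per kb in ATF4 KO and 93.4 CPM per kb in parental cells) and IFITM3 (89.6 CPM per kb in ATF4 KO and 97.1 CPM per kb in parental cells) stood highest. IFI16 and DTX3L followed at 25.6 and 22.1 CPM per kb in ATF4 KO and 24.2 and 21.9 CPM per kb in parental cells. Of the genes usually used to read an interferon response, ISG15 was not far below these, at 11.4 CPM per kb in ATF4 KO and 13.8 CPM per kb in parental cells. IFIT1 was far lower, at 2.45 in ATF4 KO and 2.47 in parental cells, as was MX1, at 0.362 in ATF4 KO and 0.397 in parental cells. The lengths are of all annotated exons merged (8616 bases for MX1), which can exceed the expressed transcript and lower the value per kb.

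**Figure D2:**
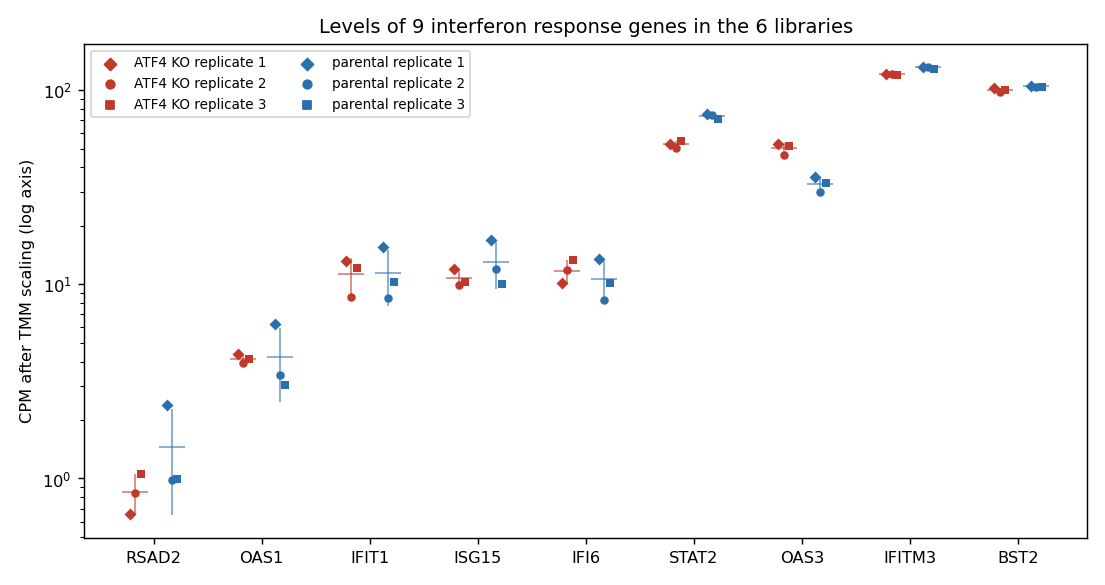
CPM after TMM scaling (log axis) of 9 interferon response genes, with each library as a point, ATF4 KO left of parental, and the group mean and SD (n = 3) as lines. Parental replicate 1 is the highest of the 6 libraries for RSAD2, OAS1, IFIT1, ISG15 and IFI6, while STAT2, OAS3 and IFITM3 separate the groups and their replicates lie close together.

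The members spread more within the parental than within the ATF4 KO group, and parental replicate 1 was most often the highest parental library. Parental replicate 1 held the highest level of the 3 parental replicates for 28 of the 36 tested members (77.8%), beside 31.1% of all tested genes. Among genes that averaged 5 CPM or more, it did so for 20 of 26 members, beside 29.7% of all such genes. The remaining parental replicates led far less: replicate 2 for 5 members and replicate 3 for 3, and replicate 3 was the lowest of the group for 58.3% of members, beside 33.6% of all tested genes. In the ATF4 KO group, replicate 1 was highest for 17 members, replicate 2 for 7 and replicate 3 for 12, and replicate 2 was lowest for 61.1% of members, beside 31.7% of all tested genes. These counts are descriptions and carry no test.

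**Figure D3:**
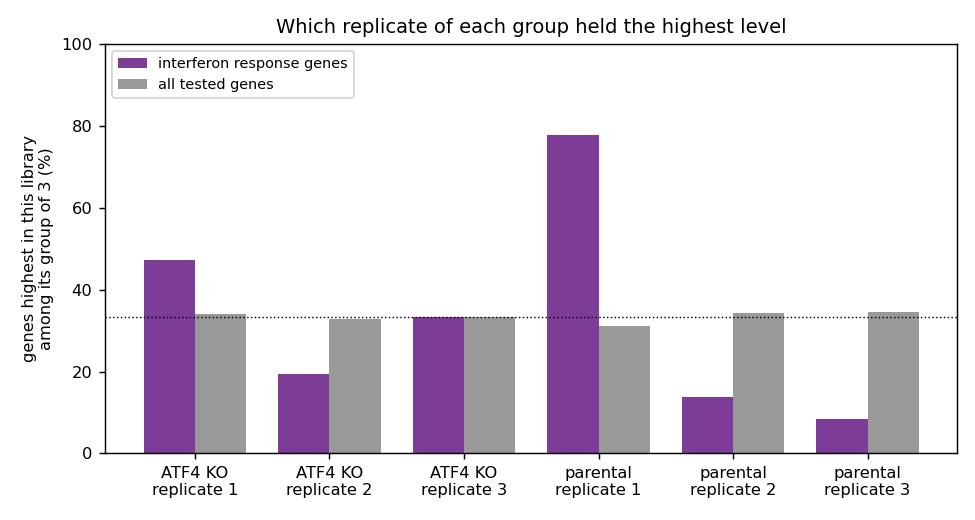
Share of genes (%) whose highest level within the group of 3 was in the library shown, for the 36 tested interferon response genes and for all 15321 tested genes, with the ATF4 KO libraries on the left and an even split as a dotted line. Parental replicate 1 held the highest parental level for 77.8% of the members and 31.1% of all tested genes.

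By size, 6 members were at least 0.5 higher on the log2 scale in parental replicate 1 than in both other parental replicates, beside 1.8% of all tested genes: RSAD2 (by 1.23), OAS2 (0.98), OAS1 (0.86), IFITM1 (0.82), IFIT1 (0.60) and ISG20 (0.57). All but IFIT1 had a mean under 5 CPM, and a minimum mean of 1 CPM left 3 of them. Among genes that averaged 5 CPM or more, 1 of 26 members was that far above both, beside 3 of all 10521 such genes. The genes behind the 1.8% were thus mostly lower ones too. In the other direction, 2 members were at least 0.5 below both others in parental replicate 3 (OAS2 and IFITM1, so these 2 spread at both ends) and 1 in parental replicate 2 (IFI27, at 0.391, 0.0455 and 0.3799 CPM in parental replicates 1 to 3). No member was that far above both replicates in parental replicates 2 or 3, and 1 was in each of ATF4 KO replicates 1 and 3. All 3 parental pairs differed beyond counting noise over all genes. The intervals that follow cover counting error only, so they understate the uncertainty of each ratio and test nothing. IFIT1 in parental replicate 1 was 1.66 times the level of the other 2 parental libraries together (95% exact binomial interval 1.496 to 1.84), OAS1 1.94 times (1.63 to 2.30), ISG15 1.52 times (1.38 to 1.68), IFI6 1.47 times (1.32 to 1.64) and DDX58 1.32 times (1.22 to 1.43). The ratio was 2.42 (1.80 to 3.27) for RSAD2. Members with little spread included STAT2 at 1.04 times (0.993 to 1.08), IFITM3 at 1.01 times (0.98 to 1.04) and BST2 at 1.02 times (0.981 to 1.05).

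Ranked by this gap among the 11384 coding genes that averaged 1 CPM or more, RSAD2 and OAS1 came first and second in parental replicate 1. They were followed by ANKRD36C, EFCAB13, STON1, ATG16L2, SAMD5, SHLD3, ODAD2 and CARMIL2, none of which is on the interferon lists. Of the 32 members ranked, 6 were among the first 50 genes of parental replicate 1, while the other 5 libraries had 0 or 1 each. The median SD of log2 CPM over the members was 0.09 in ATF4 KO and 0.14 in parental libraries, against 0.07 in both groups for all tested genes. The SD was larger in the parental group for 26 of 36 members (72.2%), beside 51.3% of all tested genes. Among genes that averaged 5 CPM or more the contrast was smaller. There the median SD was 0.06 in ATF4 KO and 0.09 in parental libraries over the members, against 0.05 in both groups for all genes. It was larger in the parental group for 17 of 26 members (65.4%), beside 50.7% of all such genes. Around each gene's own mean over the 6 libraries, the median member was at 0.00, -0.06 and 0.00 in ATF4 KO libraries and at 0.17, 0.00 and -0.06 in parental libraries on the log2 scale. Parental replicate 1 had neither the highest nor the lowest total count, and its mitochondrial share of 2.17% was the lowest of the parental group.

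**Figure D4:**
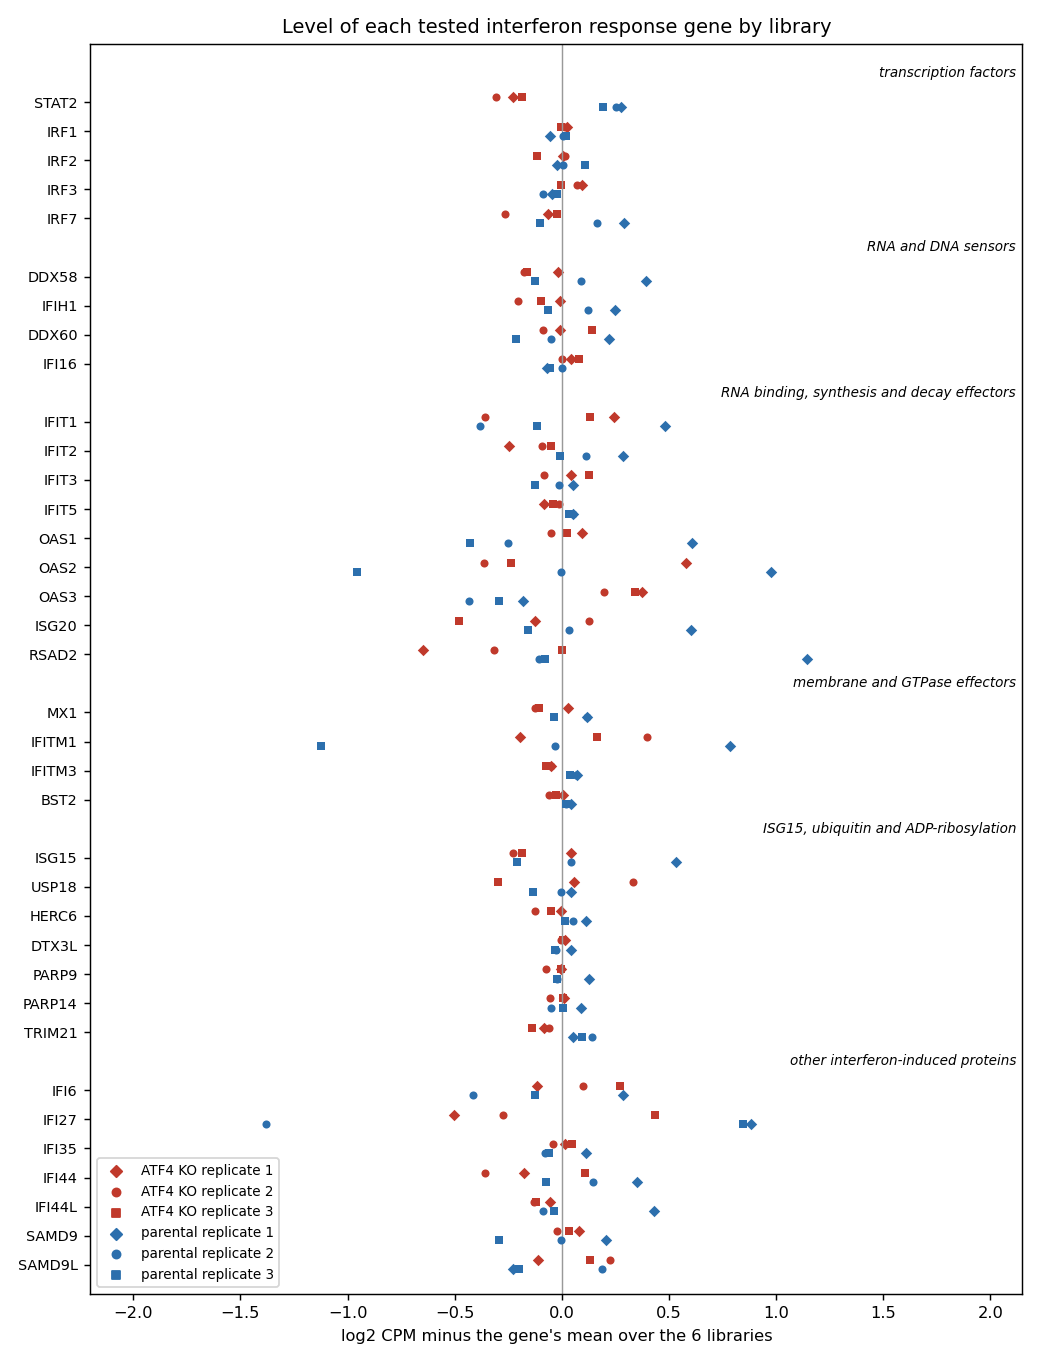
Level of each of the 36 tested interferon response genes in each library, as log2 CPM minus the gene's mean over the 6 libraries, ATF4 KO libraries in red above parental libraries in blue. The blue diamonds of parental replicate 1 lie furthest right for most genes (median 0.17), and the parental libraries spread widest for IFI27, OAS2, IFITM1 and RSAD2.

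The promoter letters of the members were read from RefSeq windows of 250 bases before to 50 bases after each transcription start (GRCh38.p14), which matched 32 of the 41 members by symbol. The ISRE core was searched as GAAANNGAAA and the gamma-activated site (GAS) as TTCNNNGAA, on both strands, and the GAA that ends a GAS can begin an ISRE core. The ISRE core letters were in 63.4% of the 41 member windows and in 3.57% of all 35116 windows, and the GAS letters in 26.8% of member windows and 7.66% of all windows. By gene, 22 members held an ISRE core and 10 a GAS. The lines below show an ISRE core or a pair of them, in capitals on whichever strand they lie, in 8 members picked after their values were seen. They are 4 of those furthest up in parental replicate 1 (RSAD2, IFIT1, IFITM1 and ISG20), ISG15 and IFI6, which were also highest there, and OAS3 and IFITM3, which were called in opposite directions. Each is written 5′ to 3′ along the gene's own strand.
RSAD2 (chr2:6877620-6877653, plus strand): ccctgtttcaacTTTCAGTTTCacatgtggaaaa
IFIT1 (chr10:89392495-89392541, plus strand): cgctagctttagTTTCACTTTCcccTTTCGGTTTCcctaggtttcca
IFITM1 (chr11:313988-314021, plus strand): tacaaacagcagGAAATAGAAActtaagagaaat
ISG20 (chr15:88638935-88638968, plus strand): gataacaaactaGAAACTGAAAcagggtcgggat
ISG15 (chr1:1013372-1013411, plus strand): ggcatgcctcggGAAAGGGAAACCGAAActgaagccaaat
IFI6 (chr1:27672251-27672310, minus strand): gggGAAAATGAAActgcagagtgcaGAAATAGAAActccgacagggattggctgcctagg
OAS3 (chr12:112938437-112938473, plus strand): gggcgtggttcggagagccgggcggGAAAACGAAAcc
IFITM3 (chr11:320874-320924, minus strand): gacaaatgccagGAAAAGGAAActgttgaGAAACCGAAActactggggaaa
In ISG15 a pair of cores overlap and share a GAAA, in the stretches shown of IFI6 and IFITM3 a pair lie side by side, and in IFIT1 and RSAD2 the core is on the opposite strand. The windows of IFI6, OAS3 and IFITM1 hold 3, 2 and 2 ISRE cores in all, so 1 core of each is not shown. Among the 6 members furthest up in parental replicate 1, RSAD2, IFITM1, IFIT1 and ISG20 hold an ISRE core and OAS1 a GAS but no ISRE core. OAS2, the remaining member, had no window matched by symbol. IFITM3 and BST2, which varied little among parental replicates, also hold ISRE cores. A match of letters is a description of these windows and not a measured binding site.

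The pathway around these genes was read from a further list of 84 genes, of which 69 were tested. In ATF4 KO cells 21 fell and 14 rose, with a median log2 fold change of -0.02, beside 20.8% and 21.2% of all tested genes with a median of 0.01. Of the 8 interferon genes themselves, none could be tested. IFNB1, IFNK, IFNA1, IFNG and IFNL3 had 0 counts in all 6 libraries, IFNE had 1 count in each of ATF4 KO replicates 1 and 2 and parental replicate 1, and IFNL1 had 1 count in parental replicate 2. IFNL2, a type III interferon, had 4 counts in parental replicate 1 and 0 in the other 5 libraries, a difference that is too small to read at this depth.

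The interferon receptor chains IFNAR1, IFNAR2 and IFNGR2 fell by 0.25, 0.48 and 0.15 on the log2 scale. All 3 lie on chromosome 21 among neighbours with medians of -0.31 to -0.32. With these removed IFNAR1 was at 0.07 and IFNAR2 at -0.17 without a call, while IFNGR2 was called higher at 0.17. Other annotated genes overlap 44.2% of the IFNAR2 exon sequence on the same strand and 39.1% on the opposite strand, so its counts are uncertain. For IFNGR2 the overlap is 12.8%, on the opposite strand. The receptor kinases JAK1 and TYK2 rose by 0.15 and 0.12, although TYK2 lost its call without ATF4 KO replicate 1 (adjusted p = 0.0847).

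Between the sensors and IRF3, MAVS, the mitochondrial adaptor of RIG-I and MDA5, fell by 0.19 on the log2 scale, and IKBKE, a kinase that can phosphorylate IRF3, fell by 0.32. STING1 fell by 0.08 (adjusted p = 0.0398), a call that leaving out any 1 library but parental replicate 3 removed. CGAS, the DNA sensor that feeds STING1, rose by 0.25, though not without ATF4 KO replicate 3 or parental replicate 1, and TICAM1, the adaptor of Toll-like receptor 3, rose by 0.18. Among the negative regulators, SOCS3, PTPN11 and IRF2BP2 fell by 0.13, 0.16 and 0.08, and IRF2BP2 lost its call without ATF4 KO replicates 1 or 2 or parental replicates 1 or 2.

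Of 42 further interferon-stimulated genes tested, 12 fell and 10 rose, beside the same 20.8% and 21.2% of all tested genes. TRIM22, a ubiquitin ligase with antiviral activity, was at 3.19, 2.39 and 2.41 CPM in ATF4 KO libraries, against 6.00, 4.71 and 5.22 CPM in parental libraries. It fell by 1.00 ± 0.14 on the log2 scale (adjusted p = 2.29e-08), the furthest of the called pathway genes. The guanylate-binding GTPase genes GBP2 and GBP1, which interferon gamma induces, fell by 0.83 and 0.56, TMEM140 fell by 0.83 and APOL6 by 0.56. These 5 genes were called lower under all 14 alternatives. With the median of the neighbours removed, the log2 fold change was -0.29 for APOL6, whose neighbours had a median of -0.27, and -0.81 for TRIM22. It was -0.87 for GBP2, -0.60 for GBP1 and -0.80 for TMEM140. IRF5, TRIM5, UBE2L6, APOL2, HELZ2, SLFN5 and LY6E fell by 0.15 to 0.44, and with the median of their neighbours removed TRIM5 (adjusted p = 0.0765), APOL2 (0.46) and HELZ2 (0.651) were not called. APOL1, the trypanolytic factor of serum, rose by 0.47 although it lies on chromosome 22 among neighbours with a median of -0.27 and beside APOL2 and APOL6, which fell. UBA7, the activating enzyme of ISG15, rose by 0.41, while UBE2L6, the conjugating enzyme of ISG15, fell by 0.26. PNPT1, PARP10, SLFN11, TRIM14, NMI, RNF213, LAP3 and CNP rose by 0.08 to 0.33. Removing the median of the neighbours ended the call or turned the direction of 10 of the 35 called pathway genes. Over all tested genes that removal moved the net share called lower from 20.8% to 18.2%, and higher from 21.2% to 17.9%. Of the 35 called pathway genes, 26 kept their call and direction without each library in turn. Without ATF4 KO replicate 3, CGAS, TRIM14, RNF213, LAP3, CNP and HELZ2 were not called. HELZ2 also lost its call without either other ATF4 KO replicate, as did CNP, while TRIM14 and LAP3 also lost theirs without ATF4 KO replicate 1 or parental replicate 3, TRIM14 without parental replicate 2 and CNP without parental replicate 3.

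In this second list, parental replicate 1 held the highest of the 3 parental levels for 32 of 69 genes (46.4%), beside 31.1% of all tested genes. Among genes that averaged 5 CPM or more, it did so for 25 of 61 (41%), beside 29.7% of all such genes.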

How the data were processed

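Stranded mRNA libraries were made from 3 ATF4 KO and 3 parental samples of RCC4 cells. The deposited values are raw counts of reads per gene. The submitters' processing notes name bcl2fastq 2.20, cutadapt, STAR and HTSeq with GRCh38. Other versions, the annotation release and strand setting were not found in those sources, so counts of overlapping, antisense and near-identical genes are uncertain.

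Gene symbols came from a gene name table, and positions, exon lengths and overlaps from GENCODE 29. Genes were filtered with filterByExpr, scaled by TMM and tested with edgeR 4.0.16 (quasi-likelihood F test, robust, R 4.3.3). P-values were adjusted by Benjamini-Hochberg over all 15321 tested genes and called below 0.05. Fold changes are ATF4 KO over parental, and log2 CPM used a prior count of 2. Depth ranged from 41002611 to 46755358 counts, and replicates of a group differed beyond counting noise (3.59 to 5.80 chi-square units for each degree of freedom), so all 6 were kept. The fit was tested on simulated data.

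Alternatives were DESeq2 size factors or total counts for scaling, DESeq2 1.42.0, limma-voom 3.58.1, no filter, a mean of at least 1 CPM, a replicate block, each library left out, and removal of the median log2 fold change of up to 50 tested neighbours a side (at least 10 in all). Same-numbered libraries did not deviate together (r of -0.02, 0.07 and 0.01 over 10521 genes), so numbers were not taken as pairs. The members, pathway lists, markers and tests were chosen with earlier results of these data known. All 41 members, ATF4, called pathway genes and the 10 genes furthest up in parental replicate 1 were to be named, and some genes of the pathway and marker lists are not reported here. The 5 CPM minimum, the genes of the 9-gene plot and the printed promoters were chosen after values were seen.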

Additional observations from a re-analysis of the deposited data

How the results depend on the processing

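Across 14 alternatives, STAT2 and OAS3 kept their direction and their call. The number of members called lower was 11 once the median of the neighbours was removed (all tested genes 18.2%), and 3 to 10 with each library left out. The lowest was without parental replicate 1 (all tested genes 17.9%) and the highest without parental replicate 3 (19.5%). The number called higher was 1 under DESeq2 (all tested genes 18.5%) and 1 with the neighbours removed (17.9%), and 1 to 2 with libraries left out. The count of members at least 0.5 higher in parental replicate 1 was 3 with a mean of at least 1 CPM required, since fewer genes were then counted. With at least 5 CPM it was 1 of 26, beside 3 of all 10521 such genes. Of the pathway genes, whose alternatives were added after seeing the data, 9 to 14 rose with libraries left out. Among all tested genes 17.8% rose without parental replicate 1, 18% without ATF4 KO replicate 1 and 19.5% without parental replicate 3. The cause of these shifts was not tested.

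Among the members, the called pathway genes and ATF4, directions that turned with the neighbours removed were those of IFITM3 (log2 fold change 0.055), DDX60 (-0.036), OAS1 (0.037), DTX3L (-0.052), IFI35 (-0.081), IFNAR1 (0.070), IFNGR2 (0.167), APOL2 (0.034) and ATF4 (0.064), of which IFNGR2 alone was called. IFIT1 turned to 0.0089 by total counts, 0.0032 under limma-voom and 0.0044 with the replicate block, and OAS1 to 0.042 under limma-voom and 0.022 with the block. With each library left out, log2 fold changes ranged over 0 for IRF1 (-0.0025 to 0.035), DDX60 (-0.070 to 0.15), IFIT1 (-0.19 to 0.27), OAS1 (-0.22 to 0.36), OAS2 (-0.57 to 0.48), IFITM1 (-0.30 to 0.66), USP18 (-0.087 to 0.24), DTX3L (-0.0046 to 0.035), PARP14 (-0.063 to 0.0073), IFI6 (-0.00077 to 0.36), IFI35 (-0.022 to 0.078) and SAMD9 (-0.076 to 0.17), none of them called with all 6 libraries. The replicate block left 7 members called lower and 2 higher. Of all tested genes, it called slightly fewer in each direction than the main analysis, where 20.8% were lower and 21.2% higher. Among the members, the block added DDX58 (adjusted p = 0.00491) and ISG15 (0.0184) and lost IRF3 (0.0501) and RSAD2 (0.077). Depth limits what can be said of OASL, MX2, XAF1 and the interferon genes, and IRF9 and IFITM2 are limited by overlap with other genes as well.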
